A study of Homo sapiens with 120 samples.

Results

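Genes that build the mitotic spindle, the kinetochore and condensed chromosomes were followed through single cells, pairs of cells, bulk RNA and drug-treated cultures of CFPAC-1, an established human pancreatic ductal adenocarcinoma line. The set was chosen by name and held 47 genes, of which 46 had a row in the table of 30504 rows; CDCA3 was not used here. Where a name stood on several rows, the row with the highest mean was taken. By role, 7 members act in chromosome condensation and structure, 13 are kinesin motors or spindle microtubule proteins, 4 belong to the chromosomal passenger complex, 10 sit at the kinetochore or centromere, 5 form the spindle checkpoint and 7 act at the spindle midzone and in cytokinesis.

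Most of these genes are transcribed late in the cell cycle. Their messages build up through G2, reach a peak in mitosis and are low in cells that have just divided or have left the cycle, so a culture that is not synchronised mixes high and low cells. Condensins and topoisomerase II compact and untangle the chromosomes, kinetochore proteins couple them to spindle microtubules, the checkpoint holds anaphase until all are attached, and midzone proteins such as PRC1 and anillin then guide the division of the cell body. Their promoters are known for short repeats of CCAAT boxes, bound by NF-Y, and for the cell cycle genes homology region, bound by the DREAM complex and by MuvB with B-MYB.

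The series held 120 RNA libraries in 2 experiments, all made with the same amplification and tagging kits. In the isolation experiment untreated CFPAC-1 cells were picked on microrafts, small releasable culture elements of an array, or trapped in the chambers of a Fluidigm C1 microfluidic chip, with 10 libraries each of rafts with 0, 1 and 2 cells, 5 each of C1 captures with 0, 1 and 2 cells, and 4 of bulk RNA. In the treatment experiment each arm (untreated, saline, 2 nM gemcitabine, 5 nM gemcitabine) had 8 libraries of rafts labelled proliferative and 8 of rafts labelled nonproliferative, and 7 libraries were made from water, 3 alongside the isolated rafts and 4 alongside the arms. Gemcitabine is a cytidine analog that blocks DNA synthesis. The labels give the number of cells on a treated raft as unknown, give no time of treatment and name no culture, so proliferation class cannot be told apart from cell number or amount of RNA, and p-values measure only the spread between rafts. Raft titles fall in 2 runs of names, called set 1 (replicates 1 to 5) and set 2 (replicates 6 to 10) below. Index pairs repeat between the sets, the arms and the C1 libraries, so these are read as separate pools, which the labels do not name. On that reading arm and library pool, and likewise C1 method and pool, cannot be told apart.

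Values were FPKM, fragments scaled by transcript length and library total. No counts were used here and library depth is unknown. Detection means an FPKM of at least 1. The ductal epithelial markers KRT8, KRT18 and EPCAM were detected in all 4 bulk libraries, all 10 rafts with 1 cell and all 5 C1 captures with 1 cell, while CFTR was listed at 0 in all 4 bulk libraries. KRT7, CDH1 and MUC1 were detected in all bulk libraries and all C1 captures with 1 cell, and in 9, 8 and 7 of 10 rafts. EPCAM had a median of 248 FPKM on rafts and 32.5 in C1 captures with 1 cell, and MUC1 had 48.96 and 501 FPKM. Of the markers of other cell types, 1 to 4 were detected in rafts with 1 cell and 3 or 4 in C1 captures with 1 cell. Their summed level ran from 85.3 to 364 FPKM and from 5.66 to 66.8 FPKM, and CD3E, VWF and DCN were listed at 0 in both groups. KRT10 made up most of it on rafts (76.2 to 364 FPKM), while in the C1 captures PTPRC, a leukocyte gene, lay between 1.43 and 8.98 FPKM. PECAM1 was detected in 4 of 5 C1 captures with 1 cell and in 1 of 10 rafts. CD14 reached 31.8 FPKM and ACTA2 13.6 FPKM in 1 C1 capture each. On rafts HBA1 reached 20.5 FPKM and LUM 16.1 FPKM. The part of these markers in the results below was not tested.

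The promoter letters of 4 members are shown because these genes stand at opposite ends of the raft and C1 comparison: TOP2A, PRC1 and TACC3 were among the members with the largest difference, and CKAP5 had nearly none. They are RefSeq windows of 300 bases on GRCh38.p14, from 250 bases before to 50 after the gene start, read 5′ to 3′ on the gene's strand, at chr17:40417847-40418146 (minus strand), chr15:90994486-90994785 (minus), chr11:46846231-46846530 (minus) and chr4:1720381-1720680 (plus). Capitals mark TTTGAA or TTCGAA, the core of the cell cycle genes homology region, and CCAAT, each on either strand (TTCAAA and ATTGG are the reverse strands).
TOP2A: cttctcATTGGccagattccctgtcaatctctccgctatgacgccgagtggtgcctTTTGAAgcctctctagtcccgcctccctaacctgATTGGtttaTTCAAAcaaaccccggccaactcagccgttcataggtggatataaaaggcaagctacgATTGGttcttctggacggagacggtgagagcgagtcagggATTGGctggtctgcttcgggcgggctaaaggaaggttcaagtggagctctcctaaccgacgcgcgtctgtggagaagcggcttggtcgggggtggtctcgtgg
PRC1: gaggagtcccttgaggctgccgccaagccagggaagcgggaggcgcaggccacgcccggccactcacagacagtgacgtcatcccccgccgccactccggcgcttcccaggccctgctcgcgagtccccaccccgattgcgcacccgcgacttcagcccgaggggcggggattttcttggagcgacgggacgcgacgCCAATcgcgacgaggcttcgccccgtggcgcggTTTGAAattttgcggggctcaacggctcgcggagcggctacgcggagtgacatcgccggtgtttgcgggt
CKAP5: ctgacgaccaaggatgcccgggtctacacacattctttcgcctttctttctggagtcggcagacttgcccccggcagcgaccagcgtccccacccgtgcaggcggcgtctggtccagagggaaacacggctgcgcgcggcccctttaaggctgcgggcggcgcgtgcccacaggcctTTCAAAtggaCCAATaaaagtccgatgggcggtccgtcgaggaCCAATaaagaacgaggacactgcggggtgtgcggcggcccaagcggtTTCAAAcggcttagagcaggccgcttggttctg
TACC3: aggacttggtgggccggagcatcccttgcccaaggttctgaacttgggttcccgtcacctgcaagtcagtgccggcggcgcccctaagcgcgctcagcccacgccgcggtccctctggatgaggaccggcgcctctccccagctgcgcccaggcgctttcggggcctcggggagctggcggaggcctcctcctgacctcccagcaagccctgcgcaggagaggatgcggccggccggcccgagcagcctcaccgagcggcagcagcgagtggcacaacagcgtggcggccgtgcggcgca

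TOP2A held 2 homology region cores and 4 CCAAT boxes, PRC1 held 1 of each, CKAP5 held 2 of each and TACC3 held neither. Over all members, 40 of 46 had a window in the table. TTTGAA stood in 29 of the 40 (72.5%) against 15.43% of 27305 promoter windows of the same length, 1 per gene name. CCAAT stood in 28 (70%) against 35.7%, and a core together with CCAAT in 24 (60%) against 6.581%. For comparison, TTTGAA stood in 24 of 46 windows of other mitotic genes and in 2 of 34 of DNA replication genes. KIF2C, CENPE, CKAP2 and RANGAP1 shared with TACC3 the lack of both. TTCGAA reads the same on both strands, and a stretch that matched both motifs counted for each. A match is a description of letters, not a binding site.

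In the isolation experiment, rafts with 1 cell carried most of the mitotic members and C1 captures with 1 cell carried few. The member score is the mean of log2(FPKM + 1) over the 46 members in a library. It was 4.61, 5.21, 5.00 and 4.79 in the 4 bulk libraries. Rafts with 1 cell scored 2.47, 4.22, 1.22, 4.33 and 4.97 in set 1 and 5.73, 3.40, 3.92, 2.67 and 5.81 in set 2. C1 captures with 1 cell scored 0.73, 0.74, 0.78, 0.63 and 1.10. The lowest raft, replicate 3, lay just above the highest C1 capture, and every other raft stood well above it. Empty C1 captures scored 0.76, 0.76, 1.10, 1.06 and 0.89, which overlaps the range of C1 captures with 1 cell. Empty rafts scored 0 to 0.53 and water 0 to 0.80.

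**Figure D1:**
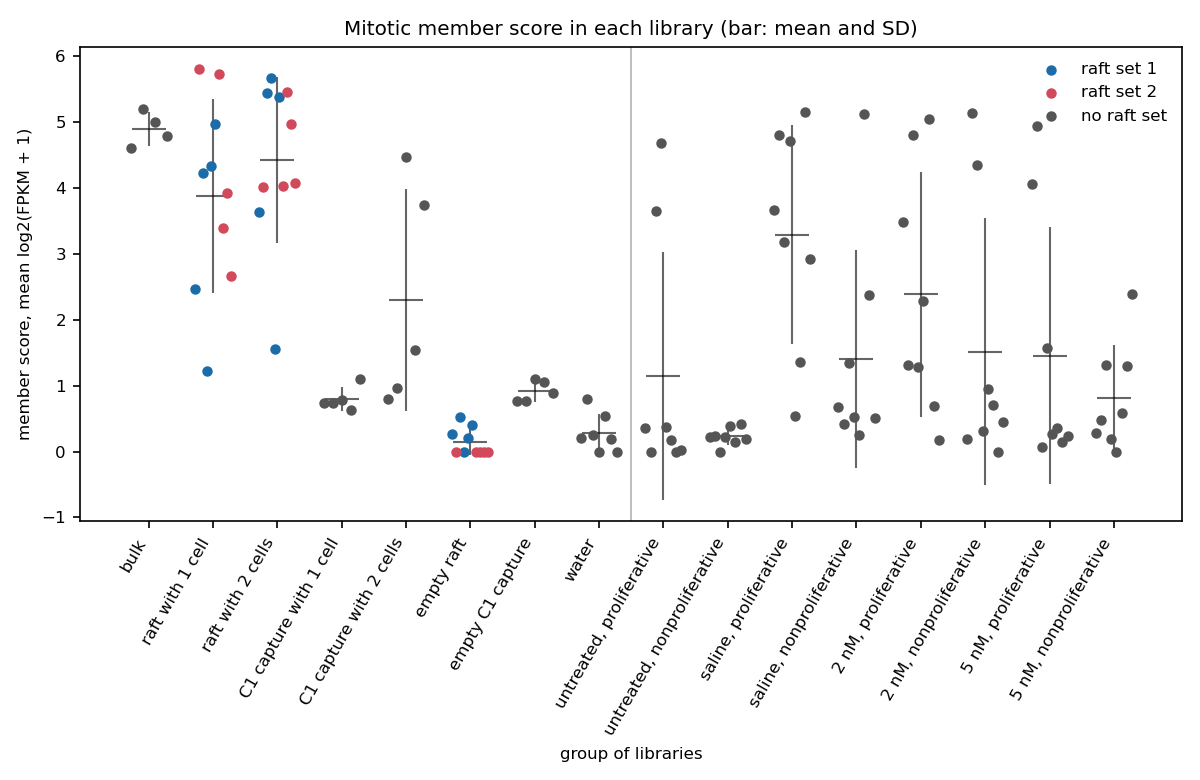
Member score (mean log2(FPKM + 1) over 46 members, vertical axis) of each library by group (horizontal axis), with points coloured by raft set and bars for the group mean and SD. The 5 C1 captures with 1 cell sit between 0.63 and 1.10, among the empty C1 captures, while rafts with 1 cell range from 1.22 to 5.81.

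The low score of the C1 captures went with many genes detected, not few. They had 8560 to 10474 genes at an FPKM of 1 or more, against 4804 to 8461 in rafts with 1 cell. Of the 10767 genes whose bulk FPKM averaged at least 1, C1 captures with 1 cell detected 64% ± 4.1 (SD, n = 5) but only 24.8% ± 5.9 of the members. Rafts with 1 cell detected 57.3% ± 10.4 (SD, n = 10) of the bulk genes and 75.7% ± 20.8 of the members. In counts, 9 to 16 of 46 members were detected in a C1 capture and 15 to 44 in a raft. Empty C1 captures themselves had 865 to 7953 genes detected, and 6.3% to 45.4% of the bulk genes. Empty rafts had 9 to 1301 genes. The part of this background in the gene numbers of C1 captures with 1 cell was not tested.

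**Figure D2:**
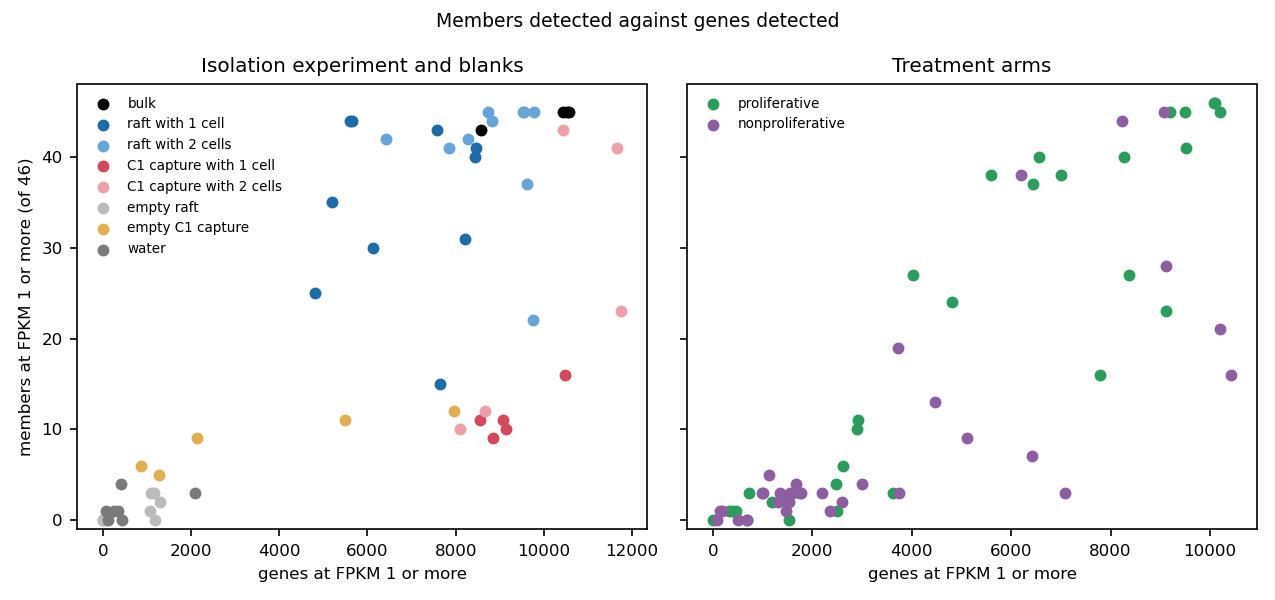
Members detected (of 46, vertical axis) against genes detected (horizontal axis) in each library, for the isolation experiment and blanks (left) and the treatment arms (right), with points coloured by group. C1 captures with 1 cell have 8560 to 10474 genes but 9 to 16 members, while rafts with 1 cell reach 44 members with as few as 5609 genes.

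Every library of this comparison is 1 cell and no culture is named, so each group counts as 1 sample and no test was made. Over the 45 members among those 10767 genes, 42 were higher on rafts by a log2 of 1 or more, against 25.2% of the 10767 genes. The members' median difference was 2.96 and that of all genes -0.01. All 10 rafts stood above all 5 captures for TOP2A and TACC3, against 1.76% of all genes. The score difference of 3.08 was 2.65 with the rafts of set 1 and 3.51 with those of set 2. It was 1.5 with a pseudocount of 10 and 2.01 after quantile normalization. Leaving out raft replicate 3 gave 43 members higher by that size, and leaving out C1 replicate 5 gave 41.

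**Figure D3:**
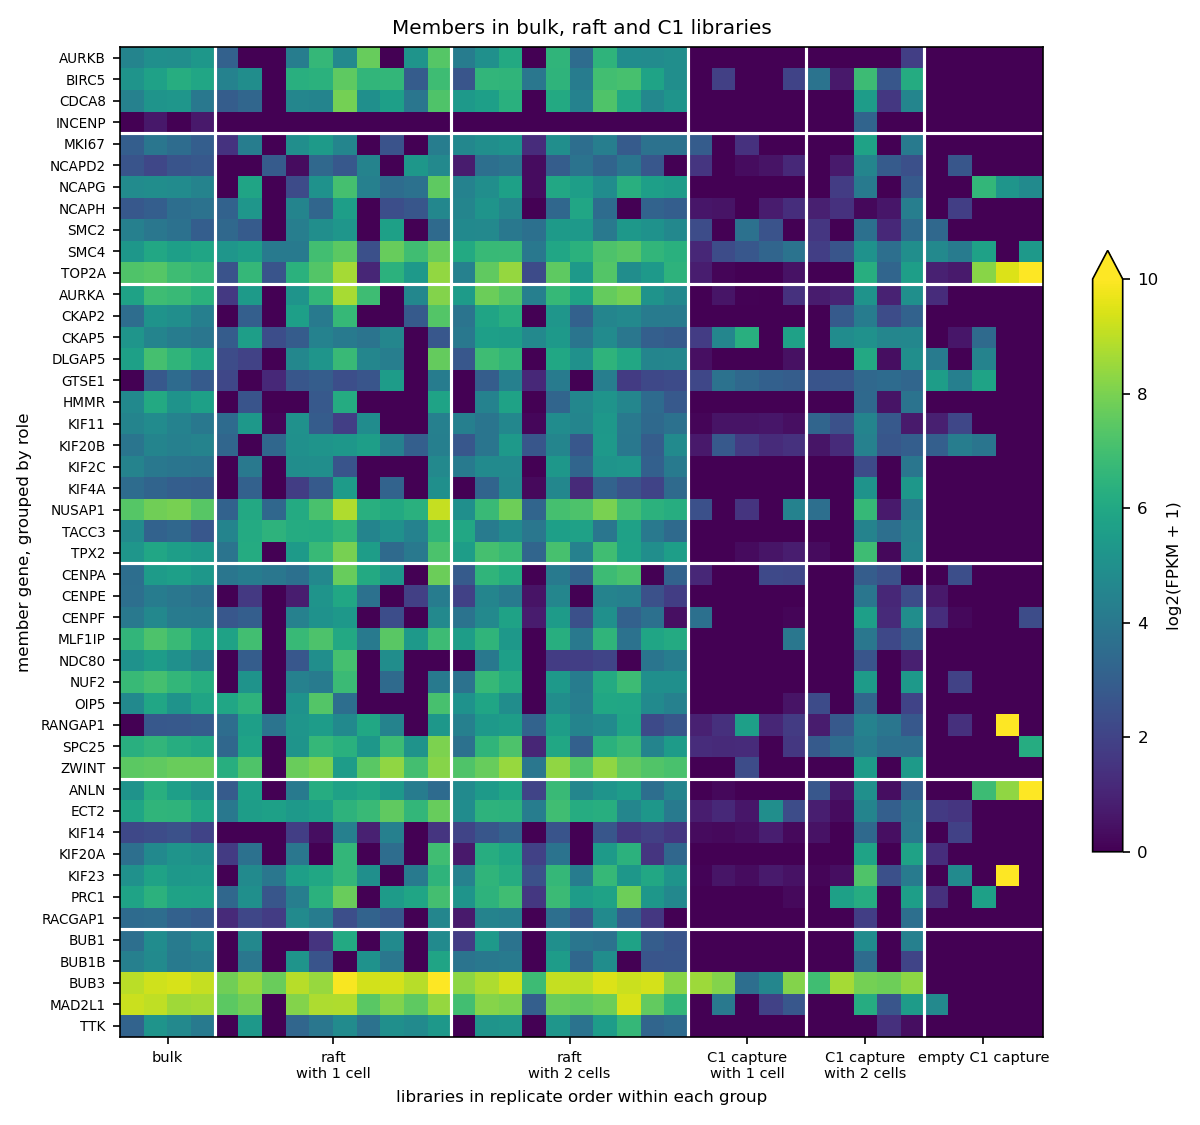
Level of each member (rows, grouped by role) in each library of bulk, rafts and C1 captures (columns) as log2(FPKM + 1), with values over 10 shown as 10. Bulk columns are even, raft columns alternate between bright and dark as a whole, and C1 columns with 1 cell are dark in most rows, with 9 to 16 members detected, apart from rows such as BUB3 and CKAP5. Replicates 3 and 5 of the C1 captures with 2 cells, with 43 and 41 members, look like raft columns.

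Every role shared the direction: the median difference was 4.19 for the passenger complex, 3.81 for midzone genes, 3.13 for the kinetochore, 2.67 for the checkpoint, 2.51 for condensation and 2.38 for spindle proteins. Among the condensation genes, all 7 had a higher mean on rafts than in C1 captures. TOP2A, the topoisomerase that untangles sister chromatids, measured 153, 164, 119 and 99.2 FPKM in bulk. In rafts with 1 cell it ran from 1.09 through a median of 84.2 to 396 FPKM, and in the C1 captures it was 0.73, 0.11, 0, 0 and 0.4 FPKM. The groups did not overlap, although the lowest raft lay only slightly above the highest capture. MKI67, the surface coat of mitotic chromosomes and the usual proliferation marker, was at 6.99, 14.2, 10.7 and 7.04 FPKM in bulk, from 0 through 11.3 to 43.1 FPKM in rafts, and at 6.43, 0, 1.69, 0 and 0 FPKM in C1 captures. These groups overlapped, because 3 of 10 rafts had none of it.

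The condensin subunits differed by less than TOP2A. SMC2, an ATPase of both condensins, ran from 0 through 9.71 to 50.6 FPKM in rafts and was at 3.95, 0, 12.3, 4.92 and 0 FPKM in C1 captures, a difference of 1.27 in mean log2(FPKM + 1). NCAPD2, a regulatory subunit of condensin I, ran from 0 through 5.96 to 38.1 FPKM against 1.88, 0, 0.26, 0.45 and 1.22 FPKM, a difference of 1.66. Both overlapped between the groups, and both are low in bulk as well, with SMC2 at 6.92 to 19.4 and NCAPD2 at 3.43 to 5.68 FPKM.

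The spindle microtubule proteins held both the clearest differences and the exceptions. TACC3, which clamps microtubules of the kinetochore fibre together, lay between 20.4 and 92.0 FPKM in the 10 rafts, while every C1 capture with 1 cell listed it at 0. Of its bulk values of 27.5, 7.77, 9.22 and 5.64 FPKM, 3 were below every raft, and its raft minus bulk difference was 2.13. TPX2, which activates Aurora A and nucleates spindle microtubules, ran from 0 through 44.5 to 244 FPKM in rafts, against 0, 0, 0.22, 0.47 and 0.75 FPKM in C1 captures. NUSAP1, a microtubule bundler near chromosomes, ran from 7.93 through 73.2 to 556 FPKM against 4.5, 0, 1.8, 0 and 20.6 FPKM, and its groups overlapped.

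CKAP5 and GTSE1 did not share this pattern. CKAP5, a microtubule polymerase that also serves the interphase array, was at 36.2, 21.7, 17.3 and 14.2 FPKM in bulk. It ran from 0 through a median of 10 to 47.5 FPKM in rafts and was at 2.45, 23.2, 77.5, 0 and 52.0 FPKM in C1 captures. GTSE1, a microtubule and p53 regulator, ran from 0 through 4.78 to 45.0 FPKM in rafts and was at 3.39, 12.5, 9.28, 7.38 and 6.66 FPKM in C1 captures. It was also at 46, 18.7 and 54.5 FPKM in 3 of the 5 empty C1 captures. The differences of -0.33 for CKAP5 and -0.68 for GTSE1 were smaller than the SD of either gene over the rafts (1.54 and 1.72).

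At the kinetochore all 10 members had a higher mean on rafts. ZWINT, which links the KNL1 scaffold to the RZZ complex, was at 175, 188, 206 and 207 FPKM in bulk and ran from 0 through 161 to 324 FPKM in rafts with 1 cell. In C1 captures it was at 0, 0, 3.96, 0 and 0 FPKM, so that 9 of 10 rafts lay above every capture and raft replicate 3 had none. MLF1IP (CENP-U), of the inner kinetochore, ran from 0 through 84.9 to 171 FPKM in rafts against 0, 0, 0, 0 and 14.4 FPKM in C1 captures. The mean log2 differences were 6.12 and 4.86.

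The checkpoint genes split by their level in C1 captures. MAD2L1, the MAD2 protein that restrains anaphase, was at 579, 527, 379 and 397 FPKM in bulk, ran from 0 through 250.5 to 447 FPKM in rafts and was at 0, 15.6, 0, 2.79 and 5.59 FPKM in C1 captures. BUB3, a checkpoint adaptor that interphase cells also use, ran from 211 through 489 to 1018 FPKM in rafts and was at 373, 285, 11.3, 22.9 and 280.4 FPKM in C1 captures. BUB3 was thus detected in all 5 captures, as were only SMC4 and GTSE1 of the other members. BUB1, BUB1B and TTK were among the 17 members at 0 in every C1 capture with 1 cell, and in rafts they were detected in 5, 6 and 8 of 10. The others were TACC3, AURKB, CDCA8, INCENP, NCAPG, HMMR, KIF2C, KIF4A, CKAP2, NDC80, NUF2, CENPE, KIF20A and RACGAP1, so every role had at least 1 of them. How many of all genes were at 0, or detected, in every such capture was not counted. These counts are therefore not set against a share of all genes.

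Of the passenger complex, AURKB and CDCA8 were at 0 in every C1 capture with 1 cell and were detected in 7 and 9 of 10 rafts. INCENP, the scaffold of the complex, was at 0 in all rafts and C1 captures with 1 cell and at most at 0.59 FPKM in bulk, and it is not described further. All 7 midzone and cytokinesis members had a higher mean on rafts. PRC1, which bundles antiparallel microtubules of the midzone, ran from 0 through 37.4 to 209 FPKM in rafts and was at 0, 0, 0, 0 and 0.19 FPKM in C1 captures, a difference of 4.73.

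The other genes of the cell cycle moved in the same direction. Of 57 further mitotic genes on the same universe 41 were higher on rafts by a log2 of 1 or more, and of 39 DNA replication genes 32. CDK1, the kinase of mitotic entry, lay between 19.93 and 455 FPKM in rafts, and no C1 capture with 1 cell had any. FEN1, the flap nuclease of the replication fork, lay between 15.7 and 299.5 FPKM against 0 to 2.74 FPKM.

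Against bulk, the C1 captures lacked the members while the rafts fell short by less. The 45 members and 10767 genes compared were kept for a mean bulk FPKM of at least 1. This choice by the bulk values favours differences below bulk, in the members and in all genes. All 5 C1 captures with 1 cell lay below all 4 bulk libraries for 41 of 45 members, against 16.5% of all genes. The score difference was -4.10, and the median difference of the members was -4.37 against -0.70 over all genes. Rafts with 1 cell were lower than bulk by a log2 of 1 or more for 25 of 45 members, against 37.1% of all genes, with a median of -1.03 against -0.72. That count was 18 without raft replicate 3. NUF2 and HMMR had the largest deficits on rafts, -3.85 and -3.67, and were detected in 6 and 4 of 10 rafts. RANGAP1 at 2.31 and TACC3 at 2.13 went the other way. For the members lower than in bulk, fewer cycling cells among those isolated and less RNA per cell cannot be told apart.

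Rafts with 2 cells had on average more members detected than rafts with 1 cell (88.7% against 75.7%), and more of the bulk genes (73.7% against 57.3%). Their scores were 3.64, 5.45, 5.67, 1.55 and 5.38 in set 1 and 4.03, 5.45, 4.97, 4.08 and 4.02 in set 2. Rafts with 2 cells were higher than those with 1 cell by a log2 of 1 or more for 13 of 45 members, against 20.4% of all genes. The count was 19 without raft replicate 4 of the 2-cell group and 7 without raft replicate 3 of the 1-cell group. NUF2, a subunit of the NDC80 complex, showed the largest difference (2.10) and was detected in 9 of 10 rafts with 2 cells. All 10 rafts with 2 cells detected 20 of 46 members (43.5%), and 38.1% of the 10767 bulk genes. All 10 rafts with 1 cell detected 6 members (13%) and 17.1% of these genes, and all 4 bulk libraries 43 members (93.5%) and 66.9%.

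C1 captures with 2 cells were split. Their scores were 0.79, 0.96, 4.47, 1.54 and 3.75, so that replicates 3 and 5 lay at raft level and replicates 1 and 2 at the level of captures with 1 cell. Members detected numbered 10, 12, 43, 23 and 41, with 8097 to 11752 genes. TOP2A was at 0, 0, 75.3, 8.66 and 48.3 FPKM, and BIRC5, the survivin subunit of the passenger complex, at 12.8, 0.61, 115, 5.45 and 70.4 FPKM. Against captures with 1 cell, 33 of 45 members were higher by a log2 of 1 or more, against 19.9% of all genes. This count was 20 without replicate 3 and 23 without replicate 5, and the score difference of 1.5 was 0.96 without replicate 3, 2.47 with a pseudocount of 0.1, 0.60 with a pseudocount of 10 and 0.78 after quantile normalization. Rafts with 2 cells were higher than C1 captures with 2 cells by that size for 39 of 45 members, against 29.1% of all genes.

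Empty C1 captures matter for the low end, because they held some members at high level. Captures with 1 cell were higher than empty ones by a log2 of 1 or more for 5 of 45 members, against 61.2% of all genes. They were lower by that size for 7 members, against 2.25%. TOP2A was at 0.88, 0.63, 300.5, 707 and 2953 FPKM in the empty captures, above the bulk range in 3 of 5. ANLN, the anillin of the contractile ring, was at 0, 0, 115, 319 and 1862 FPKM there, and at most at 0.15 FPKM in captures with 1 cell. KIF23, a kinesin of the midzone, reached 6689 FPKM and RANGAP1 7556 FPKM in replicate 4. Of 46 members 24 (52.2%) were detected in at least 1 of 5 empty C1 captures, as were 60% of the bulk genes. At least 1 of 10 empty rafts had 7 members (15.2%) and 18% of these genes, and at least 1 of 7 water libraries 10 members (21.7%) and 18.5%. A member of low level in C1 captures with 1 cell is therefore not separated from the level of empty captures, and the source of the reads in them was not tested.

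Cell-to-cell spread of the members was larger than in bulk and was shared among them. In rafts with 1 cell the median SD of log2(FPKM + 1) was 2.24 for the 43 members detected in at least 5 libraries, 1.84 for all such genes and 2.08 for genes between the members' quartiles of mean level. Other mitotic genes (2.26) and DNA replication genes (2.27) spread as much, so this was not particular to the members. In rafts with 2 cells it was 1.67 for 45 members, 1.13 for all genes and 0.99 at like level, with 1.70 for other mitotic and 1.40 for DNA replication genes. In C1 captures with 1 cell it was 1.71 for the 12 members detected in 3 or more captures and 1.30 for all such genes. With 2 cells these values were 1.81 for 26 members and 1.18. In bulk the members varied less than other genes, with 0.34 against 0.58 and 0.42. The gap in rafts with 2 cells lay in set 1, where members had 2.07 and all genes 0.86; in set 2 the values were 1.05 and 1.09. Set 1 holds replicate 4 at a score of 1.55.

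BUB3, TACC3, ECT2 and RACGAP1 had the smallest SD over rafts with 1 cell. BUB3 had 0.78 and TACC3 0.91. ECT2, the exchange factor that activates RhoA at the division plane, ran from 14.9 through 68.6 to 204 FPKM with an SD of 1.11. RACGAP1, a subunit of centralspindlin, ran from 0 through 5.04 to 26.7 FPKM with an SD of 1.54. The first 3 were detected in all 10 rafts.

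OIP5, AURKA, AURKB and CKAP2 had the largest. OIP5, which loads CENP-A at the centromere, was at 59.6, 87.6, 0, 32.8 and 158 FPKM in set 1 and at 11.1, 0, 0, 0 and 135 FPKM in set 2 (SD 3.22). AURKA, the spindle pole kinase, ran from 0 through 39.1 to 411 FPKM (SD 3.17), with the 2 highest values in replicates 6 and 10. AURKB, the kinase of the passenger complex, ran from 0 through 21.5 to 205 FPKM (SD 3.03), and CKAP2, a spindle microtubule protein, from 0 through 6.62 to 158 FPKM (SD 2.91). Each of the 4 was at 0 in some rafts and above every bulk value in others.

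Members varied together across rafts. Each gene was centred on its mean within each set, which leaves differences between whole libraries of a set in place. The median pairwise Pearson r over 10 rafts with 1 cell was then 0.50 among members and 0.01 among all genes. Of the member pairs, 91.8% had a positive r. In rafts with 2 cells the values were 0.71 and 0.01, with 97.9% positive. These include replicate 4, which had a score of 1.55 (next 3.64). The r without it, and the r of the other cell cycle lists, were not computed. With the mean of the other members, MKI67 (r = 0.97), CDCA8 (0.95) and NUSAP1 (0.93) ran most closely in rafts with 1 cell, and NCAPD2 (-0.14), KIF20B (0.18) and ECT2 (0.26) least. These are descriptions over 10 libraries in 2 sets, and the libraries differ in genes detected.

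The libraries at the ends of this range were few. Raft replicate 3 of the 1-cell group had 15 members and 7655 genes, and raft replicate 4 of the 2-cell group had 22 members and 9761 genes. Of the 40 replication genes they held 15 and 23, and so were low in both lists. Raft replicates 6 and 10 had 44 members each with 5609 and 5639 genes, and the members took 0.83% and 0.86% of all FPKM there, against 0.35% to 0.50% in bulk. Their replication genes were not highest: 24 and 30 of 40 were detected, against 38 in raft replicate 2.

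In the treatment experiment, rafts labelled proliferative held more of the members than nonproliferative ones, in part of the libraries only. Of 32 proliferative rafts 15 had at least 23 members detected, 2 untreated, 6 saline, 4 with 2 nM and 3 with 5 nM. Of 32 nonproliferative rafts 4 did, 2 with saline and 2 with 2 nM. Among the 52 libraries with at least 1000 genes, the score of proliferative minus nonproliferative rafts was 1.54 in the untreated arm, 2.14 with saline, 0.97 with 2 nM and 0.71 with 5 nM. The mean of the 4 arms, 1.34, was 0.62 after quantile normalization, 0.56 with a pseudocount of 10 and 2.25 with 0.1. The SD within a group ran from 0.12 to 2.18, and in all 4 arms the ranges of the 2 classes overlapped. The 2 nM difference was -0.45 among libraries with a Spearman rho with bulk of at least 0.25. Libraries with members also had many genes: nonproliferative rafts had a median of 1988 genes detected and proliferative ones 3827.

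**Figure D4:**
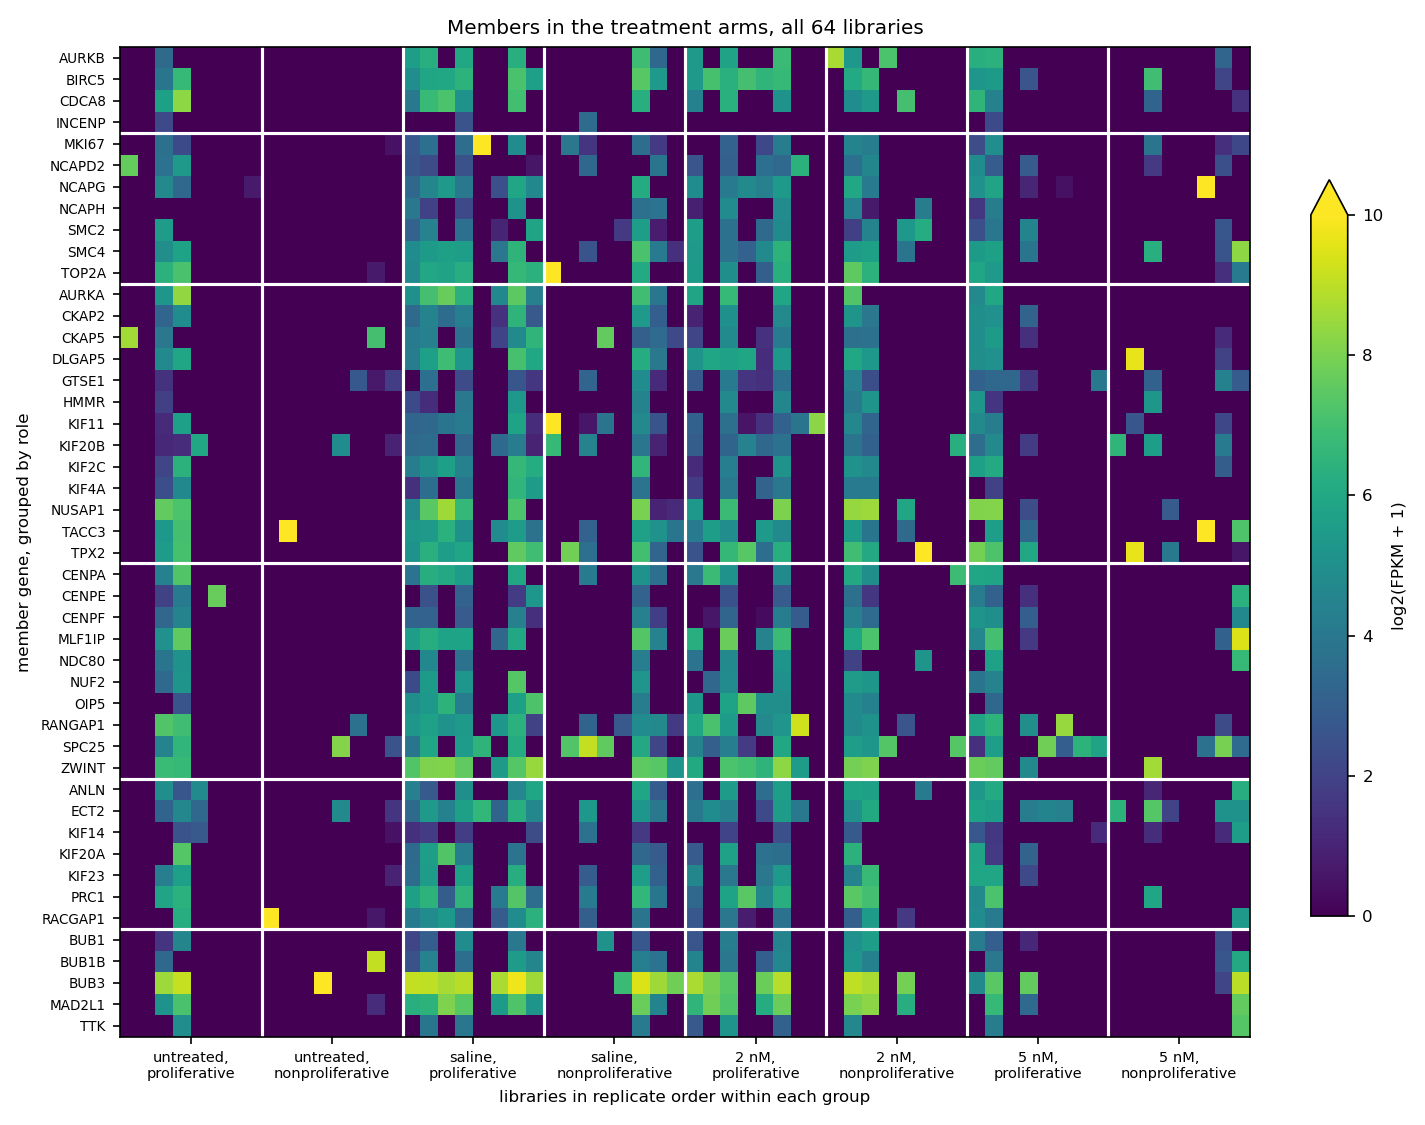
Level of each member (rows, grouped by role) in all 64 libraries of the treatment arms (columns, by arm and proliferation class) as log2(FPKM + 1), with values over 10 shown as 10. Of the 64 columns, 37 have at most 8 members detected, 8 have 9 to 22 and 19 have 23 or more, and these 19 are 15 proliferative and 4 nonproliferative libraries.

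The raft is the unit here, since each raft has its own class, and the p-values below describe the spread between rafts of cultures that the labels do not name. Averaged over the arms, 10 of 45 members tested were higher in proliferative rafts at an adjusted p under 0.05, against 11.4% of the 11560 genes tested, and 0 were lower, against 0.753%. The fit was limma-trend with Benjamini-Hochberg adjustment over all genes, and INCENP was below its filter. The median difference was 1.36 over the members and 0.58 over all genes, and 44 of 45 members were positive. Under quantile normalization, which took the median of all genes to 0.19, the split of all calls was 533 higher and 127 lower in place of 1313 and 87, and 4 members passed. With each library's gene number added to the fit no member passed (225 genes in all did), nor did any among libraries with a rho with bulk of at least 0.25 (94 genes). The part of the gene number in the difference was not tested apart from the class.

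**Figure D5:**
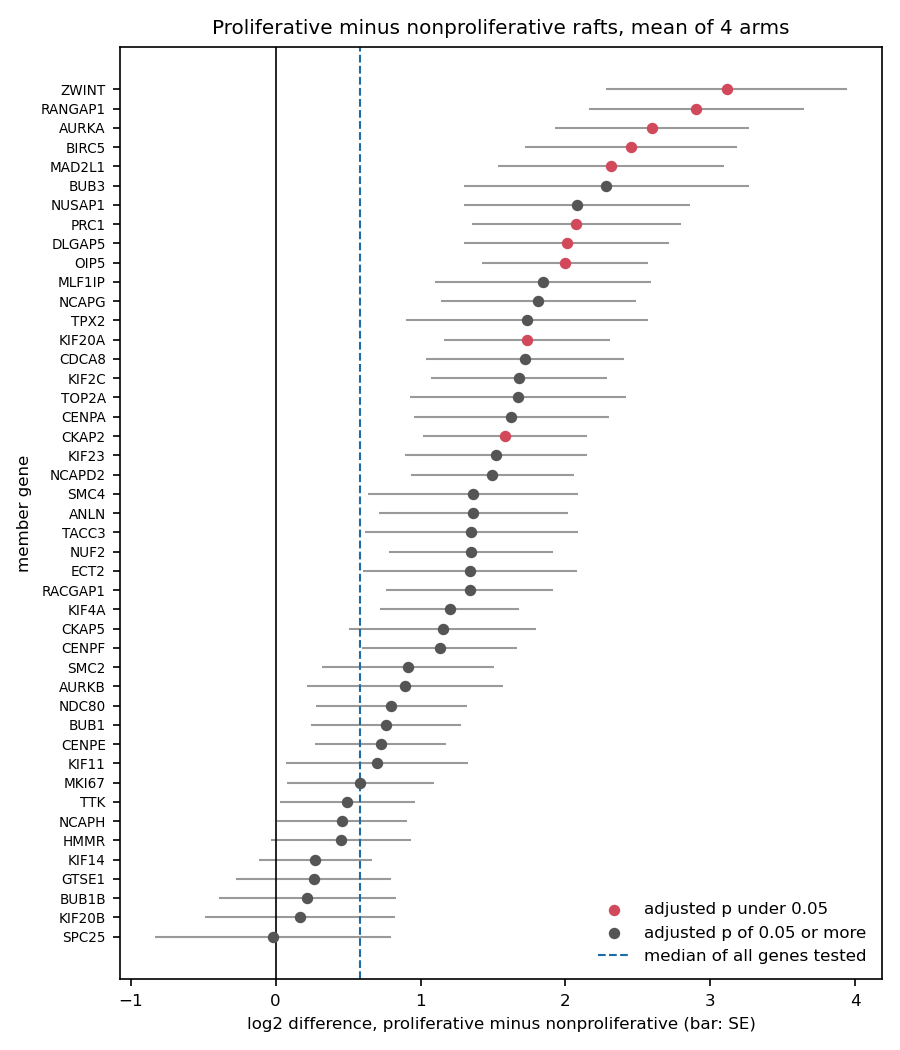
Difference of proliferative minus nonproliferative rafts in mean log2(FPKM + 1), averaged over the 4 arms (horizontal axis, bars are SE), for the 45 members tested (rows, ordered by value). Red points mark the 10 members with an adjusted p under 0.05, from ZWINT at 3.11 to CKAP2 at 1.58, and the dashed line marks the median of all genes, 0.58.

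ZWINT had the largest averaged difference of the members. It ran from 0 through a median of 176 to 354 FPKM in the 8 proliferative saline rafts and from 0 through 0 to 185 FPKM in the nonproliferative ones. With 2 nM it ran from 0 through 78.4 to 314 FPKM against 0 through 0 to 264 FPKM. The classes overlapped in every arm. In the untreated one all 8 nonproliferative rafts and 6 of 8 proliferative ones were at 0. The averaged difference was 3.11 ± 0.83 (SE, limma, adjusted p = 0.0107), with ZWINT detected in 18 of 26 proliferative and 6 of 26 nonproliferative libraries of the fit.

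RANGAP1, the activator of the Ran GTPase at the nuclear pore and kinetochore, rose by 2.90 ± 0.74 (SE, limma, adjusted p = 0.00777; 19 and 10 of 26 libraries). It was detected in 7 of 8 proliferative rafts with saline, 6 of 8 with 2 nM, 4 of 8 with 5 nM and 2 of 8 untreated. In nonproliferative rafts these numbers were 5, 3, 1 and 1. OIP5 rose by 2.00 ± 0.57 (SE, limma, adjusted p = 0.0161; 13 and 3 of 26 libraries).

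AURKA rose by 2.60 ± 0.67 (SE, limma, adjusted p = 0.00795; 14 and 3 of 26 libraries). It ran from 0 through 56.4 to 201 FPKM in proliferative saline rafts and was detected in 2 of 8 nonproliferative ones, at up to 121 FPKM. BIRC5 rose by 2.45 ± 0.73 (adjusted p = 0.0209 by limma). With 2 nM it ran from 0 through 86.4 to 133 FPKM in proliferative rafts, and 2 of 8 nonproliferative ones had it, at up to 98.8 FPKM. The other members that passed were KIF20A, the midzone kinesin MKLP2 (1.73, limma adjusted p = 0.0341), MAD2L1 (2.31, 0.0380), PRC1 (2.08, 0.0432), DLGAP5, a spindle assembly protein (2.01, 0.0454), and CKAP2 (1.58, 0.0492). By role, 3 of the 10 that passed are kinetochore members, 3 spindle proteins, 2 midzone proteins, and 1 each of the passenger complex and the checkpoint, while none of the 7 condensation members passed. SPC25, a subunit of the NDC80 complex, was the member without a positive difference (-0.02).

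TOP2A and MKI67 were not among them. TOP2A differed by 1.67 ± 0.75 (SE, limma, adjusted p = 0.110) and MKI67 by 0.58 ± 0.51 (SE, limma, adjusted p = 0.422). Of the fitted libraries, 11 of 26 proliferative and 8 of 26 nonproliferative ones had MKI67. It reached 2587 FPKM in a proliferative saline raft that had 3 members and 735 genes and was outside the fit. TOP2A was at 5319 FPKM in a nonproliferative saline raft with 3 members and 1011 genes, which was inside it. Of the other mitotic genes 17 of 56 were higher, led by CCNB1, the cyclin of mitotic entry (3.61 ± 0.84), and of the DNA replication genes 14 of 40, led by GINS2, a helicase subunit (3.97 ± 0.86); the adjusted p-values of limma were 0.00404 and 0.00247.

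The count of 10 depended on single libraries. Leaving out each library in turn gave 4 to 19 members, and RANGAP1, AURKA, ZWINT and OIP5 passed in all 52 such fits. It fell to 6 or fewer in 15 fits: without untreated proliferative replicates 3 or 4, untreated nonproliferative 5 or 6, saline nonproliferative 1 or 4, 2 nM proliferative 3 or 6, 2 nM nonproliferative 1, 4, 6 or 8, 5 nM proliferative 1 or 2, or 5 nM nonproliferative 1. It rose to 18 or 19 without saline nonproliferative replicate 6 or 2 nM nonproliferative replicate 2 or 3. Those 3 rafts had 38 to 45 members detected, although labelled nonproliferative.

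Within single arms no member passed. With saline the members' median difference was 2.40 against 0.44 over all genes, with 0% of genes called by limma, and 19 members had an unadjusted p under 0.05, as did 1272 of the 11560 genes. OIP5 (4.23), AURKA (4.53) and RACGAP1 (3.58) had the smallest p, with limma adjusted p-values of 0.303, 0.364 and 0.414. In the untreated arm the median was 1.63, 1 member had an unadjusted p under 0.05, as did 808 genes, and 0% of genes passed. In the 2 nM arm the median was 0.84, with 4 members and 1348 genes under 0.05 unadjusted and 0.0173% of genes called. In the 5 nM arm the median was 0.83, with 1 member (RANGAP1, 3.35) and 1030 genes under 0.05 unadjusted and 0% of genes called.

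Between arms, proliferative rafts with 5 nM gemcitabine had lower member levels than those with saline, without a member passing. Untreated proliferative rafts were low as well, so low levels were not particular to 5 nM. Over all 8 rafts per arm the mean score was 1.15 untreated, 1.45 with 5 nM and 3.29 with saline. The untreated rafts had medians of 1.5 members and 1510 genes detected. Arms are read as separate pools because index pairs repeat between them, and no culture is named. Calls between arms therefore compare these sets of rafts and not the treatments. Members detected in the 8 saline rafts numbered 3 to 46 with a median of 33.5, and with 5 nM 1 to 46 with a median of 3. The median number of genes detected was 7166 with saline and 3065 with 5 nM, and its part in the difference was not tested. The median difference of the members was -1.95 against -0.70 over all genes, 0.0692% of genes were called, all of them lower, and 16 members and 1722 genes had an unadjusted p under 0.05. Over all 8 rafts of each arm, OIP5 ran from 0 through 34.9 to 146 FPKM with saline and was detected in 1 with 5 nM, at 9.11 FPKM. Among the libraries of the fit only, OIP5 differed by -4.36 in mean log2(FPKM + 1). There AURKA differed by -4.55, MAD2L1 by -5.14, TOP2A by -3.49 and MKI67 by -1.08. A single member passed with a pseudocount of 10, and up to 4 did when a library was left out (4 without 5 nM proliferative replicate 2).

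The remaining comparisons called no member. Proliferative rafts with 2 nM against saline gave a median of -0.97 with 0% of genes called and 4 members and 440 genes under an unadjusted p of 0.05, with AURKA at -3.44. Proliferative saline against untreated rafts gave 1.98 with 0.00865% of genes called and 8 members and 1647 genes under it, with OIP5 at 4.32. Nonproliferative rafts with 5 nM against saline gave -0.54 with 0% called and 1 member (KIF11, -2.69) and 1520 genes under it. The difference between the proliferation effects with 5 nM and with saline, tested as an interaction, had a median of -1.23, with 0% called and 4 members and 363 genes under it. Several of these comparisons share the saline libraries and are not independent of each other. All of them are between arms, so their calls and p-values compare these sets of rafts and not the treatments.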

How the data were processed

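The authors quantified reads with RSEM against hg19, per the submitters' processing notes, and deposited 1 table of FPKM values for 120 libraries; aligner, annotation and counts are not given in the sources used here. Groups came from the labels. Column totals ran from 339644 to 817990 FPKM. A gene was detected at an FPKM of 1 or more. The isolation experiment has values without a test. Treatment arms were compared with limma 3.58.1 (R 4.3.3, limma-trend, two-sided, Benjamini-Hochberg, threshold 0.05) on log2(FPKM + 1) in 1 fit of 8 groups, with the 52 of 64 libraries with at least 1000 genes and the 11560 rows detected in at least 8 of them; the log2 scale with a pseudocount of 1 understates changes of low genes. The fit was tried on simulated normal values with a shift larger than the averaged differences given here. How well it finds differences of the observed size in data with many zeros was not tested. The members and lists were chosen with earlier results of these data known. Named members were the 8 largest and 4 smallest raft and C1 differences, the 4 largest and 4 smallest SDs, up to 8 passing members by p, the 3 smallest p where none passed, and MKI67 and TOP2A. BIRC5, SMC4, AURKB, CDCA8, INCENP, NUF2, HMMR, ANLN, KIF23, RANGAP1, KIF20B and other members named beside counts in the isolation experiment, and DLGAP5, CKAP2 and SPC25 in the arms, were named after their values were seen. Tables and figures used Python 3.11.15, pandas 2.3.3, numpy 2.4.6 and matplotlib 3.10.9. Promoters came from RefSeq on GRCh38.p14, another build than hg19, and served for sequence only.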

Additional observations from a re-analysis of the deposited data

Results flagged for a closer look

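Single libraries stood apart from their group by Dixon's 95% criterion in 5 of 32 tests of member score and members detected, where chance gives about 1 in 20. Among rafts with 2 cells, replicate 4 was low, with a score of 1.55 (next 3.64) and 22 members (next 37). Bulk replicate 1 had 43 members and the others 45. C1 replicate 5 with 1 cell had 16 members (next 11). Saline nonproliferative replicate 6 had a score of 5.13 (next 2.38).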

How the results depend on the processing

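Directions were kept in all alternatives for the score differences of the isolation experiment and for the averaged score difference of the arms, but sizes were not. The averaged difference (1.34) ran from 0.56 with a pseudocount of 10 through 0.62 after quantile normalization to 2.25 with a pseudocount of 0.1. At the same 3 settings C1 captures with 2 minus 1 cells (1.5) gave 0.60, 0.78 and 2.47, rafts with 2 minus 1 cells (0.55) gave 0.18, 0.19 and 0.99, and rafts with 1 cell minus bulk (-1.02) gave -0.40, -0.52 and -1.73. The raft minus C1 score difference of 3.08 was 1.5 with a pseudocount of 10. The C1 minus bulk difference of -4.10 was -6.25 with a pseudocount of 0.1, -1.90 with 10, -2.53 after quantile normalization and -4.79 as a median over members; the cause was not tested. Members called in the averaged contrast (10) numbered 5 with a pseudocount of 10, 5 without a filter, 5 with all 64 libraries, 4 after quantile normalization, and 0 both for libraries with a rho with bulk of at least 0.25 and with genes detected as a covariate. Leaving out each library gave 4 to 19. For proliferative 5 nM minus saline rafts 1 member passed with a pseudocount of 10 and 0 to 4 when a library was left out; for saline minus untreated 1 passed with all 64 libraries. MKI67 changed sign with the covariate, to -0.047. Counts of members past a log2 of 1 without a library were added after seeing the data: 20 to 33 for C1 captures with 2 minus 1 cells, 7 to 19 for rafts with 2 minus 1 cells, 18 to 25 for rafts minus bulk. No paired analysis was possible because each raft has its own running number in the titles, and equal replicate numbers mark no shared animal, day or culture. Depth is unknown, so absence at an FPKM of 0 cannot be bounded.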
